A study of Mus musculus with 6 samples.

Results

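The genes described here are 10 transcription factors known to set the lineages of thymic mimetic cells, *Pou2f3*, *Gfi1b*, *Spib*, *Sox8*, *Hnf4a*, *Hnf4g*, *Foxj1*, *Grhl1*, *Grhl3* and *Foxa1*. They were chosen by name for the lineage each is known for, though with earlier results of these data known. All 10 had an entry among the 39179 genes counted. RNA was measured in 6 libraries of cortical thymic epithelial cells (cTEC), 3 of Cxcl12DsRed- cTEC and 3 of Cxcl12DsRed+ cTEC, sorted in pairs in 3 experiments called A, B and C. All mice were untreated Cxcl12::DsRed knockin reporter mice on a C57BL/6 background at 10 weeks of age, in which cells that use the chemokine gene *Cxcl12* are labelled by DsRed, a red fluorescent protein. Both subsets came from the CD45-EpCAM1+UEA1-Ly51+ gate, which takes epithelial cells with the cortical surface protein Ly51 and leaves out leukocytes and cells that bind the medullary lectin UEA1, so the subsets differ in the DsRed sort alone. The comparison asks whether the factors of mimetic lineages stood at different levels in cTEC without and with the reporter. The sources used here do not say how many mice gave each library or whether the reporter allele was carried in 1 or 2 copies.

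Mimetic cells are thymic epithelial cells, described mainly in the medulla, that take on the gene programme of a peripheral epithelium such as gut, airway or skin and so show its antigens to developing T-cells. Each kind depends on or is marked by the transcription factor of its peripheral counterpart. POU2F3 makes tuft cells, which are chemosensory cells, and GFI1B is a repressor found in tuft cells and in red cell and platelet precursors. SPIB and SOX8 are needed for microfold cells, the antigen samplers of the gut. HNF4A and HNF4G are nuclear receptors of enterocytes, and FOXJ1 switches on motile cilia. GRHL1 and GRHL3 act in the barrier layers of the epidermis, and FOXA1 opens chromatin in secretory epithelia of endodermal origin.

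The promoters of 3 factors are shown because *Gfi1b* and *Foxa1* passed the test between the subsets and *Spib* had the highest level. Each is the 250 bases before the RefSeq start site in the GRCm38.p6 table, written 5′ to 3′ on the strand of the gene, and capitals mark a CCAAT box (CCAAT, or ATTGG where it lies on the other strand) and, in *Foxa1*, a forkhead site as well. The *Foxa1* window lies inside the span that GENCODE gives the gene, downstream of its annotated 5′ end.

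Gfi1b promoter (chr2:28621983-28622232, minus strand): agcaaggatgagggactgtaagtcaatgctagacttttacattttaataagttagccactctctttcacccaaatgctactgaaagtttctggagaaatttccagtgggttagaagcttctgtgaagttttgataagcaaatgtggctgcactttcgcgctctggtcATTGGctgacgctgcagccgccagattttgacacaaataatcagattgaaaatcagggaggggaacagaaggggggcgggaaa

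Foxa1 promoter (chr12:57546112-57546361, minus strand): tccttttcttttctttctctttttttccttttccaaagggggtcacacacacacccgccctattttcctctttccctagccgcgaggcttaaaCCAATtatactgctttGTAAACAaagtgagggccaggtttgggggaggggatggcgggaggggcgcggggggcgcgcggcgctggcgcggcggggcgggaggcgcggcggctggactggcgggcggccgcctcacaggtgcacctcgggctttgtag

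Spib promoter (chr7:44532072-44532321, minus strand): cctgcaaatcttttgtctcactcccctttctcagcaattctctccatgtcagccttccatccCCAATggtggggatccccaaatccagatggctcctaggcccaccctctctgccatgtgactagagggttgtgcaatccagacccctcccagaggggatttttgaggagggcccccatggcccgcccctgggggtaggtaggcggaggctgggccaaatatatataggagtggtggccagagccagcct

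The CCAAT box lay 83 bases before the start in *Gfi1b*, 157 in *Foxa1* and 188 in *Spib*. The forkhead site of *Foxa1*, GTAAACA as read on its own strand, lay 141 bases before the start. Windows of this length were at hand for 7 of the 10 factors, 9 windows in all, and those of *Pou2f3*, *Hnf4g* and *Foxj1* were not analysed here. Of all 32851 promoter windows, 33.8% held a CCAAT box and 3.17% the forkhead site TGTTTAC on either strand. The octamer ATGCAAAT that POU factors bind (1.6% of windows), the HNF4 site CAAAGTCCA (0.384%), the GRHL site AACCNGTT (1.79%), the SPI site GAGGAAGT (2.44%) and the GFI1 site AATCACTG (0.944%) were searched on both strands and had no match in the 9 windows. No 2 matches overlapped, and a match or its lack describes these letters only. The *Gfi1b* window held 44.4% G and C with 5 CpG, that of *Foxa1* 62% with 21 CpG and that of *Spib* 58% with 2 CpG, beside a median of 52.4% and 6 CpG over all windows.

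Depth was 34574900 to 51042679 counts in genes per library. The DsRed transcript had 580 to 1129 counts in the Cxcl12DsRed- libraries and 45495 to 79903 in the Cxcl12DsRed+ libraries. All 9 cTEC markers, among them *Psmb11*, *Prss16* and *Foxn1*, were detected in every library. All 9 stood lower in every Cxcl12DsRed- library than in every Cxcl12DsRed+ library, as did 1451 of the 15576 genes tested. In edgeR's quasi-likelihood test (adjusted p under 0.05) 2 of the 9 were lower and 7 did not pass. *Enpep*, which encodes the gate protein Ly51, is among the 9. The paper describes the expression of *Enpep* as comparable between the subsets. No library was a repeat of another, as a chi-square test between any pair gave 154 or more per degree of freedom. P-values here measure only the spread between these 3 libraries per subset, part of which may be technical. In bulk libraries such as these, fewer cells of a kind and less RNA per cell cannot be told apart.

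Of the 10 factors, 2 were higher in Cxcl12DsRed- cTEC, *Gfi1b* and *Foxa1*, none were lower and 8 did not pass (edgeR's quasi-likelihood test, Benjamini-Hochberg adjusted p under 0.05 over the 15576 genes tested). Over all genes tested, 0.623% passed in either direction and 0.449% were higher. All 10 factors passed the filter on low counts, and 9 of 10 had a positive log2 fold change, with *Hnf4a* the exception. The median log2 fold change of the 10 factors was 3.27, beside 0.02 over all genes tested. In 5 of 10 factors (*Pou2f3*, *Gfi1b*, *Spib*, *Grhl1* and *Foxa1*) every Cxcl12DsRed- library stood above every Cxcl12DsRed+ library, as it did in 9.73% of all genes tested. With the experiment as a block, 0 of the 10 factors passed, beside 0.334% of all genes higher, and 7 of the 10 had an unadjusted p under 0.05, as had 1783 of the 15576 genes. With edgeR's likelihood ratio test 5 of the 10 passed, the same 5 whose libraries did not overlap, beside 3.53% of all genes higher, and DESeq2 called those 5 as well.

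**Figure D1:**
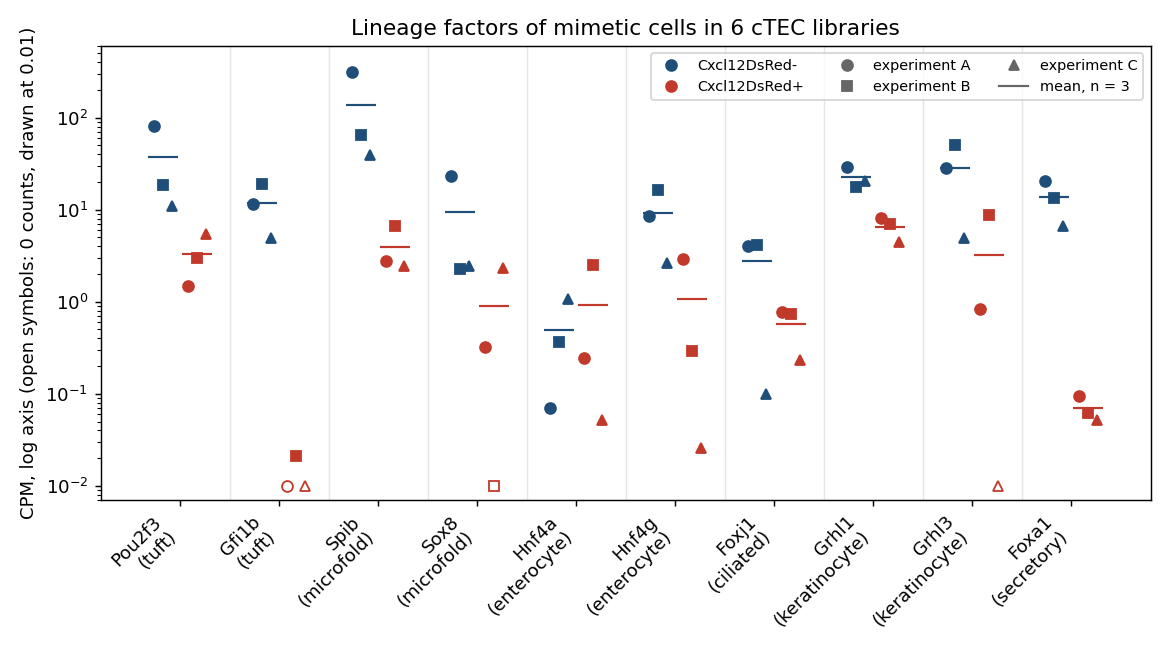
Levels in CPM (log axis) of the 10 lineage factors in each of the 6 libraries, with circles for experiment A, squares for B and triangles for C, lines at the mean of 3 libraries, and open symbols for 0 counts; the line of a mean under 0.01 CPM (*Gfi1b* in Cxcl12DsRed+ cTEC) is not drawn. The subsets do not overlap for *Pou2f3*, *Gfi1b*, *Spib*, *Grhl1* and *Foxa1*, and the Cxcl12DsRed+ libraries of *Gfi1b* and *Foxa1* lie at or under 0.0945 CPM.

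*Pou2f3*, on chr9:43123939-43210369 of GRCm38, stood at 82.0, 18.5 and 10.9 CPM (counts relative to the library's total after TMM scaling) in the Cxcl12DsRed- libraries of experiments A, B and C, and at 1.49, 3.0 and 5.41 CPM in the Cxcl12DsRed+ libraries. The subsets did not overlap, and the order of the experiments was turned around between them, so that the pairs were 54.9-fold apart in A, 6.16-fold in B and 2.01-fold in C. Its mean was 37.1 ± 39.1 CPM (SD, n = 3) in Cxcl12DsRed- cTEC and 3.30 ± 1.98 CPM (n = 3) in Cxcl12DsRed+ cTEC. The log2 fold change of 3.49 (SE 0.92) did not pass (edgeR's quasi-likelihood test, adjusted p = 0.160). It was 1.77 without experiment A and 4.46 without experiment C.

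*Gfi1b*, on chr2:28609450-28621982, had 494, 623 and 201 counts in the Cxcl12DsRed- libraries of A, B and C, or 11.4, 18.9 and 4.94 CPM. In the Cxcl12DsRed+ libraries it had 0, 1 and 0 counts. Reads of this factor were thus found almost solely in Cxcl12DsRed- cTEC, at 11.8 ± 7.01 CPM (SD, n = 3). The counts pooled over each subset, relative to the library totals after TMM scaling, differed 1576-fold. The 95% counting interval was 282 to 62280, which covers counting error only. Its log2 fold change was 10.19 (SE 1.42; edgeR's quasi-likelihood test, adjusted p = 0.0429), a size that depends on the prior count. The adjusted p was 0.0778 with the experiment as a block. It was 0.127 without the Cxcl12DsRed- library of A and 0.102 without that of B. It was 0.138, 0.160 and 0.102 without the Cxcl12DsRed+ library of A, B and C in turn, and 0.0442 without the Cxcl12DsRed- library of C.

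The other regulators and markers of tuft cells lay beside these factors. *1810046K07Rik*, which encodes the POU2F3 coactivator POU2AF2, was higher in Cxcl12DsRed- cTEC at 159, 37.3 and 27.0 CPM in A, B and C, against 0, 0 and 0.103 CPM (log2 fold change 11.15, SE 1.44; edgeR's quasi-likelihood test, adjusted p = 0.0391, and 0.0778 with the block). It was 1 of 4 tuft regulators to pass, and the other three, *Colca2*, *Sox9* and *Ascl2*, had log2 fold changes of 1.5, 0.50 and 0.49. Of 23 tuft markers 5 were higher, none were lower and 18 did not pass, beside 0.449% of all genes tested that were higher. The 23 had a median log2 fold change of 5.95. In 20 of the 23 every Cxcl12DsRed- library stood above every Cxcl12DsRed+ library, as in 9.73% of all genes tested. Among them were *Trpm5*, the taste transduction channel (200 ± 188 against 0.657 ± 0.725 CPM, n = 3 each), *Gng13*, a taste G protein subunit (92.4 ± 77.5 against 0.112 ± 0.0543 CPM), *Chat*, which makes acetylcholine (15.0 ± 11.5 CPM against 1 count in each Cxcl12DsRed+ library) and *Alox5ap*, of leukotriene synthesis (140 ± 140 against 2.26 ± 0.385 CPM). With the block 6 of 23 were higher, beside 0.334% of all genes tested, among them *Trpm5* and *Gng13* (adjusted p = 0.0168 and 0.0204). The likelihood ratio test called 19 of 23, beside 3.53% of all genes tested that were higher. By qPCR the paper found that both cTEC subsets lacked *Trpm5*, beside medullary cells in which it was detected.

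The tuft genes shared 1 pattern over the experiments. All 23 tuft markers were highest in the Cxcl12DsRed- library of A, beside 33.4% of all genes tested whose highest Cxcl12DsRed- library was A. Of the tuft markers' CPM summed over the 3 Cxcl12DsRed- libraries, A held 69.8%, B 18.3% and C 11.9%. *Pou2f3* was split in a like way, with 73.6% in A, 16.6% in B and 9.78% in C. *Gfi1b* was not, with 32.3% in A, 53.7% in B and 14.0% in C. These shares are descriptions over 3 libraries with no test.

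*Gfi1b* also marks red cell and platelet precursors, so markers of those cells were set beside it. Their summed level was 221, 24.6 and 1948 CPM in the Cxcl12DsRed- libraries of A, B and C and 139, 292 and 3378 CPM in the Cxcl12DsRed+ libraries. This sum was lowest in the Cxcl12DsRed- library of B and highest in the Cxcl12DsRed+ library of C. Of the 14 markers 9 were tested and none passed, with a median log2 fold change of -0.82. The precursor marker *Klf1* was at most 0.467 CPM, and the highest marker was the globin gene *Hba-a1* at 2285 CPM. The part of red cell and platelet precursors in the level of *Gfi1b* was not tested.

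*Spib*, on chr7:44525993-44532071, stood at 310, 64.6 and 38.8 CPM in the Cxcl12DsRed- libraries of A, B and C and at 2.74, 6.69 and 2.42 CPM in the Cxcl12DsRed+ libraries. The lowest Cxcl12DsRed- library was above the highest Cxcl12DsRed+ library in each of these values, and A alone held 75.0% of the Cxcl12DsRed- sum. Its mean was 138 ± 150 CPM (SD, n = 3) against 3.95 ± 2.38 CPM (n = 3), and the log2 fold change was 5.12 (SE 0.96). It did not pass (edgeR's quasi-likelihood test, adjusted p = 0.0776), and with the likelihood ratio test the adjusted p was 7.13e-06. Without experiment A the log2 fold change was 3.46.

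*Sox8*, on chr17:25565892-25570686, stood at 23.4, 2.25 and 2.44 CPM in the Cxcl12DsRed- libraries of A, B and C and at 0.321, 0 and 2.35 CPM in the Cxcl12DsRed+ libraries. The subsets overlapped, and in experiment C the pair was 1.04-fold apart. The log2 fold change was 3.40 (SE 1.93; edgeR's quasi-likelihood test, adjusted p = 0.596), and 0.98 without experiment A. *Sox8* shares 329 of its 3118 exon bases with the antisense gene *2810468N07Rik*. Since the use of strand in counting is not given, how reads in those shared bases were counted is not known.

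The further microfold genes divided by class. Of 5 other microfold regulators, namely *Nfkb2*, *Relb*, *Traf6*, *Tnfrsf11a* and *Esrrg*, most of them parts of the RANK and NF-κB route, none passed, the median log2 fold change was 0.21 and no regulator had separate subsets. *Tnfrsf11a*, which encodes RANK, stood at 8.95 ± 5.87 CPM (SD, n = 3) against 4.75 ± 1.80 CPM (n = 3). Of 13 microfold markers none passed either, and their median log2 fold change was 2.15, with a positive value in 11 of 13. In 4 of the 13 every Cxcl12DsRed- library stood above every Cxcl12DsRed+ library, as in 1515 of the 15576 genes tested. In 2 of the 13 every Cxcl12DsRed- library stood below every Cxcl12DsRed+ library, as in 1451 of the 15576. The 4 with the smallest p were *Pglyrp1*, a bacterial cell wall binder (132 ± 81.4 against 4.81 ± 4.56 CPM, adjusted p = 0.0709 by edgeR's quasi-likelihood test), *Scg5* (adjusted p = 0.17), the chemokine gene *Ccl20* (0.174) and *Gp2*. *Gp2*, the uptake receptor of microfold cells, stood at 1942, 1022 and 668 CPM against 2.91, 65.8 and 0.825 CPM in A, B and C, with an adjusted p of 0.206. Summed over the Cxcl12DsRed- libraries, A held 40.5% of the microfold marker CPM, less than the 75.0% and 83.3% it held of *Spib* and *Sox8*, values that were not tested against each other. The markers in that sum were also abundant in the Cxcl12DsRed+ libraries, at 3326 to 4557 CPM, beside 4149 to 6497 CPM in the Cxcl12DsRed- libraries. The one with the highest single value was *Clu*, at 1964 CPM.

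*Spib* is also expressed by B cells and plasmacytoid dendritic cells, which the CD45- gate should leave out. Of 7 B cell markers *Pax5* was at 0 counts in all 6 libraries, *Ms4a1* and *Cr2* were at most 1.75 and 0.185 CPM, and *Cd79a* was at most 3.33 CPM. *Cd79b* and *Blnk* were higher than these, at 33.7, 33.2 and 6.91 CPM and at 56.7, 33.0 and 7.08 CPM in the Cxcl12DsRed- libraries, and at most 1.79 and 1.98 CPM in the Cxcl12DsRed+ libraries. The summed level of the B cell markers was 14.0 to 93.9 CPM in Cxcl12DsRed- cTEC and 1.91 to 7.03 CPM in Cxcl12DsRed+ cTEC, and none of the 3 that were tested passed. With the likelihood ratio test *Cd79b* and *Blnk* were higher, and their subsets did not overlap. These 3 had a median of 4.37 on the log2 scale, and all 3 were highest in the Cxcl12DsRed- library of A, as *Spib* was. The part of B cells in the level of *Spib* was not tested. Of 4 plasmacytoid dendritic cell markers *Siglech* had 0 counts in all 3 Cxcl12DsRed- libraries and none of the 2 tested passed. Their sum was 14.3 to 371 CPM against 4.27 to 13.7 CPM, most of it from *Klk1* (364 CPM in the Cxcl12DsRed- library of B), which gland cells also express.

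*Hnf4a*, on chr2:163506808-163572910, was near the limit of detection with 3, 12 and 43 counts in the Cxcl12DsRed- libraries of A, B and C and 13, 119 and 2 counts in the Cxcl12DsRed+ libraries. In CPM this was 0.497 ± 0.507 (SD, n = 3) against 0.926 ± 1.35 (n = 3), and the subsets overlapped. Its log2 fold change of -0.89 (SE 1.59; edgeR's quasi-likelihood test, adjusted p = 0.922) turned to 1.72 without the Cxcl12DsRed+ library of B and to 1.91 without experiment B. It was -2.67 without experiment C. The antisense gene *Hnf4aos* overlaps the locus without sharing exon bases.

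*Hnf4g*, on chr3:3508030-3658052, was the enterocyte receptor with the more reads. It stood at 8.61, 16.4 and 2.66 CPM in the Cxcl12DsRed- libraries of A, B and C and at 2.93, 0.292 and 0.0258 CPM in the Cxcl12DsRed+ libraries. It was higher in Cxcl12DsRed- cTEC in all 3 experiments, as were 17.5% of all genes tested, while the lowest Cxcl12DsRed- library lay under the highest Cxcl12DsRed+ library. The log2 fold change was 3.09 (SE 1.59; edgeR's quasi-likelihood test, adjusted p = 0.544), and 1.91 to 5.81 when a library or an experiment was left out.

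Some enterocyte markers passed where the receptors did not. Of 24 enterocyte markers 17 were tested, with a median log2 fold change of 4.67. Beside 0.449% of all genes tested that were higher, 4 of the 17 were higher and none were lower. These were *Cdhr5*, a brush border cadherin (57.9 ± 32.5 against 0.0990 ± 0.0242 CPM, n = 3 each), *Lypd8*, a secreted flagella binder (41.7 ± 23.7 against 1.17 ± 0.658 CPM), *Saa1*, an acute phase protein (44.1 ± 45.1 against 0.541 ± 0.0824 CPM), and *Apoc3*, an apolipoprotein (11.9 ± 6.54 CPM against 2 counts over the Cxcl12DsRed+ libraries). With the block *Cdhr5* alone passed (adjusted p = 0.0222). *Alpi*, a classical enterocyte phosphatase, had 0 counts in all 6 libraries. Of 12 other enterocyte regulators 6 were tested and none passed, with a median log2 fold change of 1.51. Among them *Klf5* stood at 25.1 ± 8.17 against 4.97 ± 2.67 CPM and *Cdx1* at 12.1 ± 13.0 against 0.732 ± 1.03 CPM, while *Maf* stood at 28.0 ± 4.18 against 33.3 ± 6.41 CPM.

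*Foxj1*, on chr11:116330704-116335399, stood at 4.02, 4.17 and 0.0984 CPM in the Cxcl12DsRed- libraries of A, B and C and at 0.775, 0.730 and 0.232 CPM in the Cxcl12DsRed+ libraries. The Cxcl12DsRed- library of C had 4 counts and was the lowest of the 6, so the subsets overlapped and 2 of 3 experiments had the higher level in Cxcl12DsRed- cTEC. The log2 fold change was 2.25 (SE 1.41; edgeR's quasi-likelihood test, adjusted p = 0.642).

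Markers of ciliated cells summed to 446, 347 and 84.7 CPM in the Cxcl12DsRed- libraries of A, B and C. In the Cxcl12DsRed+ libraries they summed to 51.9, 41.4 and 105 CPM. In C the Cxcl12DsRed- library was the lower of the pair for this sum, as it was for *Foxj1*. The marker with the highest single value was *Tppp3*, at 269 CPM. Of 20 ciliated cell markers 12 were tested and none passed, with a median log2 fold change of 2.49. The 4 with the smallest p were *Rsph4a*, *Dynlrb2*, *Fam183b* and *Ccdc113*, with adjusted p-values of 0.0723, 0.0723, 0.0827 and 0.116 in edgeR's quasi-likelihood test. *Rsph4a*, a radial spoke protein, stood at 21.8, 4.29 and 1.62 CPM in the Cxcl12DsRed- libraries of A, B and C, and *Dynlrb2*, a dynein light chain, at 11.9, 14.4 and 1.16 CPM, with 1 count each over the Cxcl12DsRed+ libraries. Both were thus higher in the Cxcl12DsRed- library of C than in its pair, unlike the sum. Of the ciliated markers' CPM summed over the Cxcl12DsRed- libraries C held 9.65%, and of *Foxj1* 1.19%. Of 10 other ciliated regulators *Mcidas*, *Gmnc* and *Foxn4*, which act in multiciliated cells, had 0 counts in all 6 libraries, and the 7 ciliated regulators tested had a median log2 fold change of 0.08 with none passed. Of these *Rfx3*, a cilia factor, stood at 4.36 ± 2.40 against 8.36 ± 3.08 CPM (SD, n = 3 each) and *Trp73* at 30.7 ± 18.5 against 20.1 ± 10.1 CPM. *Myb* and *E2f5* had log2 fold changes of 1.44 and -0.59.

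*Grhl1*, on chr12:24572283-24617391, was the factor with the smallest standard error. It stood at 29.2, 17.6 and 20.3 CPM in the Cxcl12DsRed- libraries of A, B and C and at 8.11, 6.90 and 4.48 CPM in the Cxcl12DsRed+ libraries. The subsets did not overlap, and the pairs were 3.60-fold, 2.55-fold and 4.53-fold apart. Its mean was 22.4 ± 6.06 CPM (SD, n = 3) against 6.50 ± 1.85 CPM (n = 3). The log2 fold change of 1.78 (SE 0.46) did not pass (edgeR's quasi-likelihood test, adjusted p = 0.149), and the adjusted p was 0.0382 with the likelihood ratio test. Leaving out a library or an experiment gave 1.52 to 1.98.

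*Grhl3*, on chr4:135541888-135573630, stood at 28.5, 51.0 and 4.94 CPM in the Cxcl12DsRed- libraries of A, B and C and at 0.832, 8.74 and 0 CPM in the Cxcl12DsRed+ libraries. Within each experiment Cxcl12DsRed- cTEC had more, while B was the highest and C the lowest experiment in either subset. The log2 fold change was 3.14 (SE 1.78; edgeR's quasi-likelihood test, adjusted p = 0.596). With the experiment as a block it was 4.88 (adjusted p = 0.289), and the likelihood ratio test with that block gave an adjusted p of 0.00397.

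Regulators and markers of keratinocytes gave few calls. Of 12 other keratinocyte regulators none passed and 9 had a positive log2 fold change, with a median of 0.51. Among those with the smallest p were *Zfp750*, a terminal differentiation factor (27.7 ± 16.5 against 3.27 ± 0.763 CPM, adjusted p = 0.1 by edgeR's quasi-likelihood test), *Ovol1* (22.6 ± 12.8 against 4.43 ± 1.97 CPM) and the third Grainyhead factor *Grhl2* (74.9 ± 16 against 43.0 ± 13.2 CPM). All 13 keratinocyte markers tested, of 20, had a positive log2 fold change and none passed, with a median of 2.63. *Spink5*, a protease inhibitor of the skin barrier, stood at 369, 298 and 91.9 CPM in the Cxcl12DsRed- libraries and at 2.82, 4.63 and 0.155 CPM in the Cxcl12DsRed+ libraries, with an adjusted p of 0.0717 in edgeR's quasi-likelihood test and of 0.0460 with the block. *Sbsn*, *Tgm1* and *Sprr1a*, of the cornified layer, had adjusted p-values of 0.0959, 0.104 and 0.107, and *Dsc1* and *Sprr1b* had 0 counts in all libraries.

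*Foxa1*, on chr12:57540628-57546916, had 890, 445 and 272 counts in the Cxcl12DsRed- libraries of A, B and C and 5, 3 and 2 counts in the Cxcl12DsRed+ libraries. In CPM this was 20.6, 13.5 and 6.69 against 0.0945, 0.0626 and 0.0515, and the subsets lay far apart in each experiment, by 217-fold in A, 216-fold in B and 130-fold in C. Means were 13.6 ± 6.93 CPM (SD, n = 3) against 0.0695 ± 0.0223 CPM (n = 3), and *Foxa1* was higher in Cxcl12DsRed- cTEC with a log2 fold change of 7.54 (SE 0.90; edgeR's quasi-likelihood test, adjusted p = 0.0374). The adjusted p was 0.0735 with the experiment as a block. It was 0.122 without the Cxcl12DsRed- library of A and 0.0867 without that of B. It was 0.12, 0.15 and 0.0925 without the Cxcl12DsRed+ library of A, B and C in turn, and 0.0317 without the Cxcl12DsRed- library of C. In the fits that lost these calls of *Foxa1* and *Gfi1b* by leaving out a library, at most 1 of all 15576 genes passed. Both calls were also lost with the block, where 73 genes passed, and without experiment C, where 64 passed (adjusted p = 0.0737 for *Foxa1* and 0.0922 for *Gfi1b*, edgeR's quasi-likelihood test).

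Among secretory genes 1 regulator and 3 markers passed. *Spdef*, the goblet cell factor, was the 1 of 7 tested secretory regulators to pass, at 27.6, 56.5 and 8.93 CPM in the Cxcl12DsRed- libraries of A, B and C and at 0.0756, 0.229 and 0.103 CPM in the Cxcl12DsRed+ libraries (log2 fold change 7.80, SE 1.0; edgeR's quasi-likelihood test, adjusted p = 0.0391, and 0.0460 with the block). *Foxa2*, the partner of FOXA1, had a log2 fold change of 7.92 (SE 1.91) that did not pass (adjusted p = 0.127) and rested on 1 count over the Cxcl12DsRed+ libraries. Of 21 secretory markers 19 were tested and all 19 had a positive log2 fold change, with a median of 4.58. Of the 19, 3 were higher and none were lower, beside 0.449% of all genes tested that were higher. The 3 were the antiprotease genes *Wfdc2* (1329 ± 385 against 50.9 ± 18.7 CPM, n = 3 each) and *Slpi* (76.5 ± 3.58 against 3.06 ± 1.99 CPM), and *Pigr*, the receptor that carries IgA across epithelia (172 ± 114 against 3.37 ± 1.99 CPM). With the block *Wfdc2* and *Pigr* passed. The split of *Foxa1* over the Cxcl12DsRed- libraries, 50.4% in A, 33.2% in B and 16.4% in C, stood beside 50.2%, 30.7% and 19.1% for the summed secretory markers, a sum carried by *Bpifa1*, which gave 23890 of the 29640 CPM in A.

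**Figure D2:**
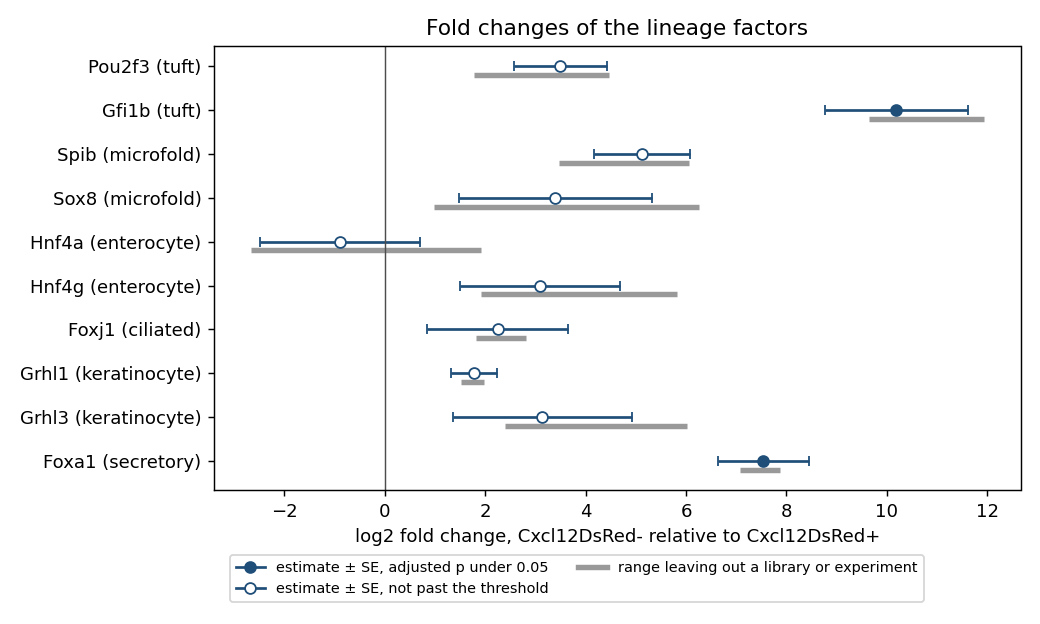
Log2 fold change of each lineage factor, Cxcl12DsRed- relative to Cxcl12DsRed+ (points, bars ± SE), filled where the adjusted p was under 0.05, over the range of values when a library or an experiment was left out (grey lines). *Gfi1b* and *Foxa1* are filled, and *Hnf4a* is the one factor whose range crosses 0, from -2.67 to 1.91.

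**Figure D3:**
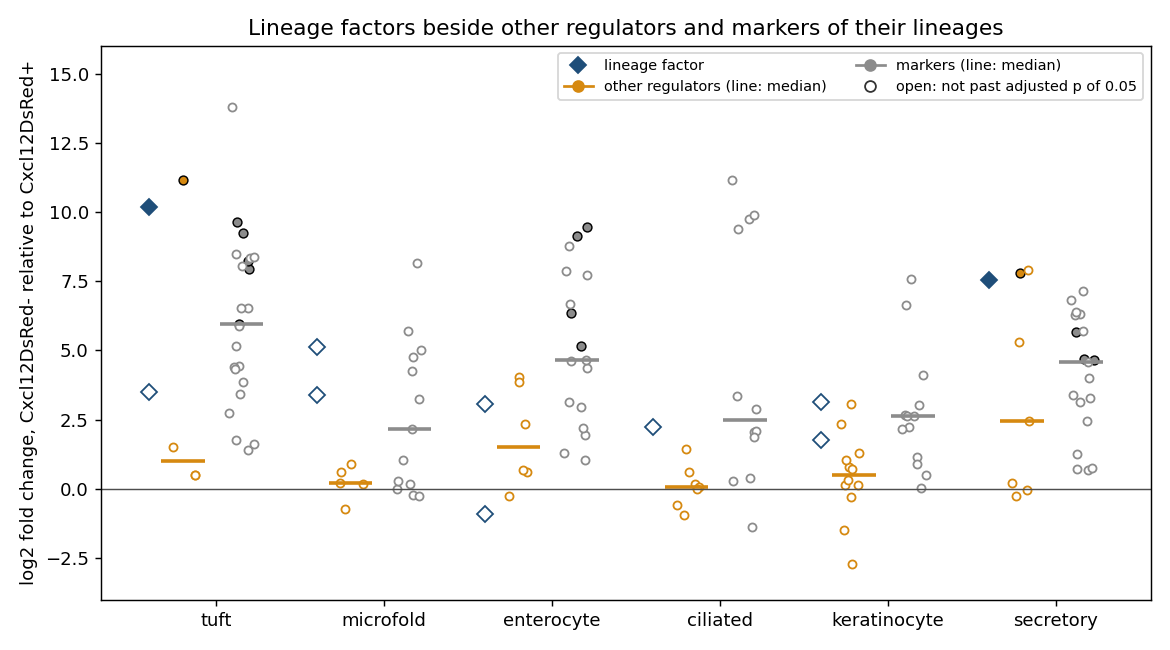
Log2 fold change of the factors (diamonds) beside the other regulators (orange) and the markers (grey) of the same lineage that passed the filter, with lines at each list's median and filled symbols where the adjusted p was under 0.05. Medians of the markers lie at 5.95 for tuft, 2.15 for microfold, 4.67 for enterocyte, 2.49 for ciliated, 2.63 for keratinocyte and 4.58 for secretory cells, above those of the regulators in each lineage.

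The experiment with the highest Cxcl12DsRed- level differed between the factors. It was A for 5 of 10 (*Pou2f3*, *Spib*, *Sox8*, *Grhl1* and *Foxa1*), B for 4 of 10 (*Gfi1b*, *Hnf4g*, *Foxj1* and *Grhl3*) and C for *Hnf4a*, while all genes tested were spread as 33.4%, 34.7% and 31.9%. The share that C held was 5.86% to 16.4% in 7 of the 10 factors, lower in *Foxj1* (1.19%) and higher in *Grhl1* (30.3%) and *Hnf4a* (70.9%). The 2 keratinocyte factors were split unlike each other, with 43.5%, 26.2% and 30.3% for *Grhl1* in A, B and C and 33.7%, 60.4% and 5.86% for *Grhl3*. All these shares describe 3 libraries and were not tested.

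**Figure D4:**
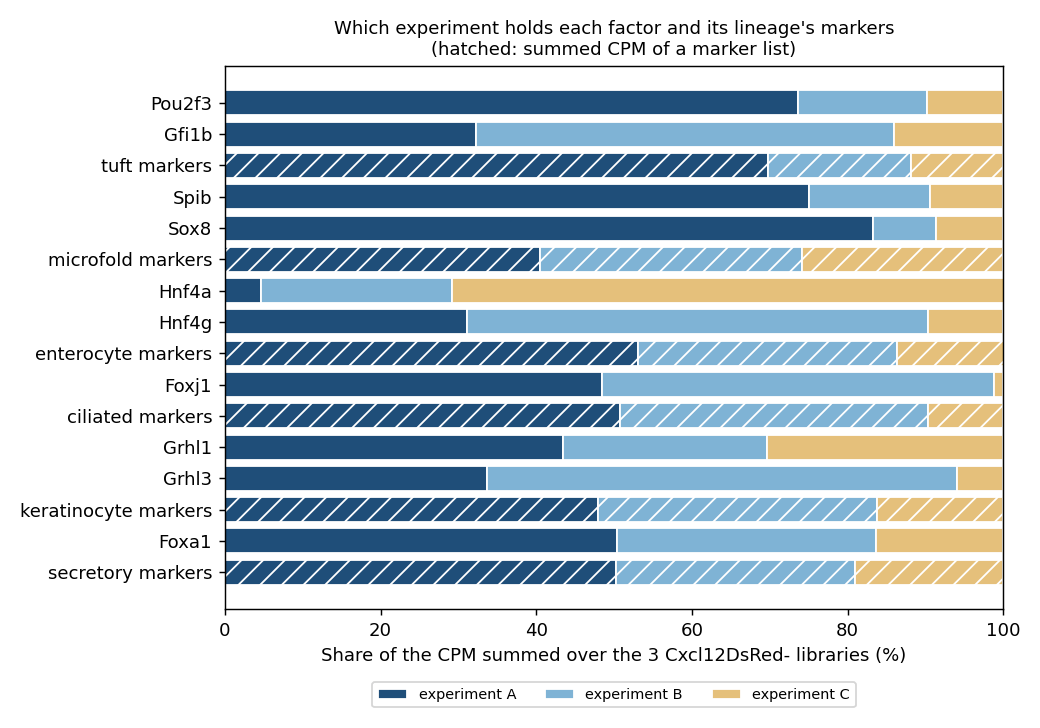
Share of the CPM summed over the 3 Cxcl12DsRed- libraries that came from experiments A, B and C, for each lineage factor (plain bars) and for the summed markers of its lineage (hatched bars). A holds 73.6% of *Pou2f3*, 75.0% of *Spib* and 69.8% of the tuft markers, against 32.3% of *Gfi1b* and 40.5% of the microfold markers.

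Between genes, levels were compared per length in TPM, the share of transcripts computed from the counts and the exon length of each gene. In Cxcl12DsRed- cTEC *Spib* came first at 114 ± 126 TPM (SD, n = 3), then *Pou2f3* at 28.5 ± 30.7 TPM, *Grhl3* at 23.1 ± 18.3 TPM, *Gfi1b* at 14.8 ± 8.35 TPM and *Foxa1* at 9.53 ± 5.08 TPM. *Grhl1* at 9.44 ± 2.88 TPM, *Hnf4g* at 8.04 ± 5.76 TPM, *Sox8* at 7.15 ± 9.41 TPM, *Foxj1* at 2.43 ± 2.03 TPM and *Hnf4a* at 0.239 ± 0.247 TPM followed. The ranges of all neighbours in this order overlapped, so that no neighbours differed beyond their spread, while the lowest *Spib* library (31.7 TPM) lay above every library of the 7 factors from *Gfi1b* down. In Cxcl12DsRed+ cTEC *Spib* at 3.28 ± 1.70 TPM, *Grhl1* at 2.91 ± 1.04 TPM, *Grhl3* at 2.61 ± 3.83 TPM and *Pou2f3* at 2.56 ± 1.47 TPM came first. *Hnf4g* at 1.11 ± 1.69 TPM, *Sox8* at 0.694 ± 0.968 TPM, *Foxj1* at 0.547 ± 0.306 TPM and *Hnf4a* at 0.438 ± 0.618 TPM lay between. *Foxa1* at 0.0523 ± 0.0222 TPM and *Gfi1b* at 0.00849 ± 0.0147 TPM came last, the single pair of neighbours in either order whose ranges did not overlap. That gap rests on 5, 3 and 2 counts of *Foxa1* against 0, 1 and 0 of *Gfi1b*. As a count of 0 allows up to 3 counts by counting error alone, the 2 are not resolved.

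For each factor the genes with the nearest profile over the 6 libraries were found by the root mean square difference of log2 CPM, each gene centred on its mean. Nearest to *Pou2f3* were *Plac8* (0.383), *Clmn* (0.439) and *Il17rb* (0.475), of which *Il17rb* encodes the receptor of IL-25 and is on the tuft marker list. Among the nearest to *Spib* were *Trf* (0.294) and *Alox5* (0.364), and *Alox5*, which encodes an enzyme of leukotriene synthesis, is a tuft marker as well. *Alox5* stood at 486, 96.3 and 80.7 CPM in the Cxcl12DsRed- libraries of A, B and C and at 5.31, 7.36 and 5.75 CPM in the Cxcl12DsRed+ libraries. None of the 13 microfold markers was among the 3 genes nearest to *Spib* or *Sox8*. With 3 neighbours per factor out of 15576 genes tested, such a lack is the likely outcome for any short list. How often a listed marker would be a neighbour was not tested.

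The remaining factors had neighbours of other kinds. Nearest to *Gfi1b* were the noncoding gene *Gm13391* (0.226), *Abca13* (0.424) and *Ly6g6c* (0.662), and nearest to *Foxa1* were *Slc12a3* (0.305), *Mlph* (0.366) and *Gm15890* (0.430), where *Slc12a3* and *Gm15890* were under 1.2 CPM in every library. Nearest to *Grhl1* were *Pnck* (0.228), *Ctdspl* (0.243) and *Ddit4l* (0.248). Nearest to *Grhl3* were *Cilp* (0.650), *Pip5k1b* (0.664) and *Stra6* (0.772), and to *Foxj1* *Slc4a9* (0.366), *Dio1* (0.544) and *Slc18a1* (0.592). Nearest to *Hnf4g* were *Dab1* (0.254), *Gm12349* (0.684) and the pseudogene *Gm6723* (0.726). *Hnf4a* lay nearest to *Stap1* (0.361), *Tbc1d10c* (0.837) and *Zfp157* (0.888), and *Sox8* was without a near neighbour, the closest being *Cacna2d2* (1.0), *Gm26542* (1.01) and *Dnali1* (1.22). These distances describe 6 libraries from 3 experiments, with no test. With a prior count of 1 in place of the smaller one, 1 of the 3 neighbours stayed for *Gfi1b*, *Hnf4g* and *Foxa1*.

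Markers of other cells in or near the gate were read beside the factors. Markers of endothelial cells summed to 39.8 to 77.1 CPM in Cxcl12DsRed- cTEC and 517 to 4079 CPM in Cxcl12DsRed+ cTEC, with *Emcn* lower in Cxcl12DsRed- cTEC (adjusted p = 0.0466, edgeR's quasi-likelihood test). Of 10 thymocyte and myeloid markers tested none passed, with a median log2 fold change of -0.18. The medullary markers *Aire*, *Fezf2*, *Cd80*, *Krt5* and *Krt14* gave no call, and *Aire* stood at 0, 16.5 and 0.935 CPM against 0, 4.99 and 0 CPM in A, B and C. Summed, these medullary markers reached 3420 to 4148 CPM in Cxcl12DsRed- cTEC and 1070 to 5028 CPM in Cxcl12DsRed+ cTEC. The highest of them was *Krt5*, at 3317 CPM. Of 15 neuroendocrine markers 9 were tested and none passed. Of these 9, 3 were highest in the Cxcl12DsRed- library of A, 4 in that of B and 2 in that of C, and *Resp18*, which did not pass the filter, gave 224 of the 449 CPM that all 15 summed to in B. The part of any of these cells in the levels of the lineage factors was not tested.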

How the data were processed

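RNA of sorted cTEC was made into libraries with the SMARTer Ultra Low Input kit from poly(A) RNA. The authors deposited raw counts per gene and library, made with Trimmomatic 0.36 for trimming, STAR 2.7.3a for alignment to mm10 and HTSeq in its intersection-nonempty mode for counting. Which annotation release was counted, and whether by strand, is not given in the sources used here. Spike-in, summary and reporter entries stayed out of library sizes and tests, and reads in no gene came to 5.87% to 9.35% of the counts in genes.

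The test was edgeR's quasi-likelihood test (edgeR 4.0.16, R 4.3.3) after TMM scaling, on the 15576 genes that filterByExpr kept at a minimum count of 10. Its p-values were adjusted by Benjamini-Hochberg over these genes, and fold changes used a prior count of 0.125. Each SE was the absolute log2 fold change over the square root of the F statistic of the test. It was thus not estimated on its own and depends on the prior count as well. GENCODE for GRCm38 (mm10) gave symbols, positions and lengths for 37693 of the 39179 IDs. Floors of 3 counts and 95% intervals cover counting error only, as amplified reads are not independent molecules. Alternatives were the likelihood ratio test, both edgeR tests with the experiment as a block, voom in limma 3.58.1, DESeq2 1.42.0, other scalings, no filter or one at a mean of 1 CPM, which change the genes in the fit, and leaving out each library and experiment over the same 15576 genes. Plots were drawn with matplotlib.

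Libraries of 1 experiment were read as a pair, since the labels name the experiment of each. The main test left the experiment out of its model, and only the fits with the experiment as a block took in the pairing. After subtraction of the subset mean, the pair of A had a correlation of -0.00856 over genes, that of B 0.0607 and that of C 0.0417. Two-sided exact permutation tests of 3 libraries against 3 cannot go below 0.1, which *Pou2f3*, *Gfi1b*, *Spib*, *Grhl1* and *Foxa1* reached, nor below 0.25 within pairs. The factors, the gene lists and the motifs were chosen with earlier results of these data known, and the motifs after the values of the factors were seen. Named genes were the 10 factors, the members of each regulator and marker list that passed or else the 4 with the smallest p, the 3 nearest profiles of each factor, and of other cell types the defining markers at 0 and the highest marker. Further genes (such as *Colca2*, *Foxa2*, *Traf6*, *Cd79b* and *Aire*) were named after their values were seen. Of 276 symbols on the lists 272 matched 1 gene ID. Some genes that the rule selects are not reported here.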

Additional observations from a re-analysis of the deposited data

How the results depend on the processing

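*Gfi1b* and *Foxa1*, 2 of the 10 factors, were the ones to pass under RLE size factors, under library totals only, without a filter and under a filter at a mean of 1 CPM, which left *Hnf4a* out. The likelihood ratio test and DESeq2 called 5 each and limma voom 0. With the experiment as a replicate block 0 factors passed, and 4 (*Gfi1b*, *Spib*, *Grhl3* and *Foxa1*) with the likelihood ratio test and that block. Leaving out a library or an experiment gave 0 to 2 called factors. Over all genes 97 were called in the main test, 880 by the likelihood ratio test, 1060 by that test with the replicate block, 1081 by DESeq2 (532 adjusted p-values were not available, that of *Sox8* among them), 4 by limma voom, 168 with no filter, 73 with the replicate block in the quasi-likelihood test, and 0 to 131 when a library or an experiment was left out. Where 0 genes were called, 1219 to 1692 had an unadjusted p under 0.05. The direction of *Hnf4a* was reversed at a log2 fold change of 1.72 without the Cxcl12DsRed+ library of B and 1.91 without experiment B. Both fits leave out the Cxcl12DsRed+ library of B, which held 119 of the 134 Cxcl12DsRed+ counts of *Hnf4a*. Elsewhere the log2 fold change was as low as -2.67. Why that library held most of the counts was not tested. The other nine factors kept a positive log2 fold change under every alternative. Standard errors of 0.46 to 1.93 on the log2 scale limit what 3 libraries per subset can resolve, and for *Hnf4a* and *Foxj1* the few reads do as well.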

Other observations

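Of 12 regulators of further mimetic lineages none passed the filter on low counts, which asks for reads in enough libraries. *Myod1* and *Myf5* of muscle, *Foxi1* and *Foxi2* of ionocytes, *Ptf1a* of the pancreas, *Gcm2* of the parathyroid and *Nkx2-1* of thyroid and lung had 0 counts in all 6 libraries. *Myog*, a muscle factor, had 265 and 85 counts in the Cxcl12DsRed- libraries of A and C and 0 counts in that of B and in the Cxcl12DsRed+ libraries. *Foxe1*, a thyroid factor, had 127 counts in the Cxcl12DsRed- library of A, 5 in that of C and 1 count in the Cxcl12DsRed+ library of A. *Ascl3* of ionocytes and gland ducts had 103 and 20 counts, both in experiment C, in the Cxcl12DsRed- and the Cxcl12DsRed+ library, and 0 counts in the other four libraries. A count of 0 allows up to 3 counts per library, for counting error only.

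Neuroendocrine genes were uneven between the experiments. *Chga*, a granule protein, stood at 43.3, 64.1 and 1.18 CPM in the Cxcl12DsRed- libraries of A, B and C and at most at 0.209 CPM in the Cxcl12DsRed+ libraries (adjusted p = 0.0898, edgeR's quasi-likelihood test). *Pyy*, a gut hormone gene, reached 38.2 CPM in the Cxcl12DsRed- library of B and 0.116 and 0.123 CPM in those of A and C. *Cck* went the other way, at 4.85, 5.42 and 10.9 CPM in the Cxcl12DsRed- libraries and 13.1, 13.6 and 12.6 CPM in the Cxcl12DsRed+ libraries, and did not pass (adjusted p = 0.623).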
